A study of Mus musculus with 6 samples.

Results

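The genes described here are 8 transcription factors that set up or maintain the macrophage lineage: Spi1, Cebpa, Cebpb, Cebpd, Maf, Mef2c, Runx1 and Zeb2. They were taken by symbol from a table of 25124 genes, and all 8 symbols were found, each once. The data are 6 poly(A) RNA sequencing libraries of bone marrow-derived macrophages (BMDM) from wild-type C57BL/6 mice 8 weeks of age, 3 per group. Marrow cells of both groups were cultured for 7 days with 20 ng/ml macrophage colony-stimulating factor (M-CSF). M2 cells then received 10 ng/ml interleukin-4 (IL-4) together with 20 ng/ml M-CSF, whereas M0 cells received 20 ng/ml M-CSF alone, and both were collected 4 h later. The sources do not say whether the replicates were separate mice or separate cultures, so p-values measure the spread between these libraries, which may be technical. As an in vitro model, the cells see a single cytokine on a background of M-CSF.

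Macrophages are made from myeloid progenitors by a small set of DNA-binding proteins. PU.1, the product of Spi1, opens macrophage enhancers and is required for the lineage, and it binds beside C/EBP proteins and RUNX1 at many of them. The C/EBP proteins are basic leucine zipper factors: C/EBPα (Cebpa) drives myeloid commitment, while C/EBPβ (Cebpb) and C/EBPδ (Cebpd) are induced in inflammation, and C/EBPβ is needed for Arg1 expression in alternatively activated macrophages. IL-4 acts through its receptor on STAT6, and STAT6 binds many enhancers that lineage factors have opened. MAF restrains self-renewal of mature macrophages and activates Il10, MEF2C and RUNX1 act in monocytic differentiation, and ZEB2 keeps tissue macrophages in their identity.

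Of the 8 factors, Cebpa and Cebpd rose 1.91-fold each in M2 cells, as the ratio of mean TPM (a level per transcript length, set against the library's total), and Maf fell, with a mean 2.91 times as high in M0 cells. Runx1 rose slightly and Mef2c fell slightly, and Spi1, Cebpb and Zeb2 did not pass the test. The test was limma-trend on log2(TPM + 1), with genes passing at a Benjamini-Hochberg adjusted p under 0.05 over 11235 genes that reached 1 TPM in at least 3 libraries. All 8 factors were among the genes tested, so 3 rose, 2 fell and 3 did not pass. Over all tested genes 62.9% passed, 17.7% rising and 45.3% falling, so the share of factors that passed was near the background. In 5 of the 8 factors the TPM of the groups did not overlap, against 69.4% of all tested genes. The median log2 fold change of the factors was −0.02, beside −0.15 over all genes tested. In bulk RNA, fewer cells of a type and less RNA per cell cannot be told apart.

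**Figure D1:**
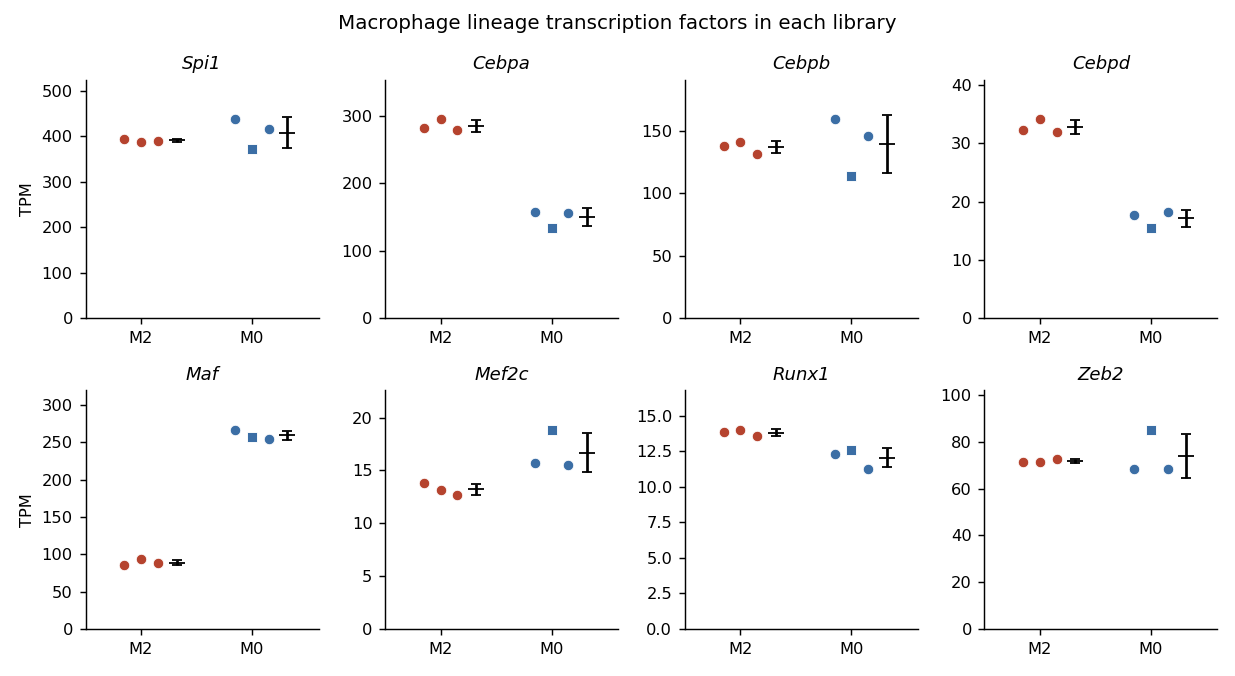
TPM of each of the 8 factors (vertical axes, each starting at 0) in the 3 M2 and 3 M0 libraries, with the mean and SD beside each group; M0 replicate 2 is drawn as a square. Cebpa, Cebpd and Runx1 sat higher in all M2 libraries, Maf and Mef2c sat lower in all M2 libraries, and the groups overlapped for Spi1, Cebpb and Zeb2.

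Values of the library set bear on how small changes are read. The libraries held 16913185 to 19019896 reads in genes, and their TPM are not scaled for composition: dividing each library by its median-ratio factor moved the median log2 fold change of all tested genes by 0.16, to 0.00. After this scaling 56.9% of tested genes passed, 28.8% rising and 28.2% falling, and rising genes made up 50.6% of the calls, against 28.0% before it. Of the 8 factors, 3 rose, 1 fell and 4 did not pass after scaling, Mef2c being the one that lost its call. The deviation of M0 replicate 2 from the other M0 libraries followed transcript length, with a Spearman rho of 0.51 across 8522 genes of at least 5 mean TPM. The corresponding rho of the M2 libraries lay between −0.05 and 0.04, and that of the other M0 libraries was not computed. Genes share the library and are not independent replicates, and the part of this trend in each result was not tested beyond the values given. Without M0 replicate 2, 7 of the 8 factors passed, 3 rising and 4 falling, with 66.4% of all tested genes passing, 19.7% rising and 46.6% falling. The added calls were Spi1 and Cebpb, described with their values below, and Zeb2 did not pass.

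**Figure D2:**
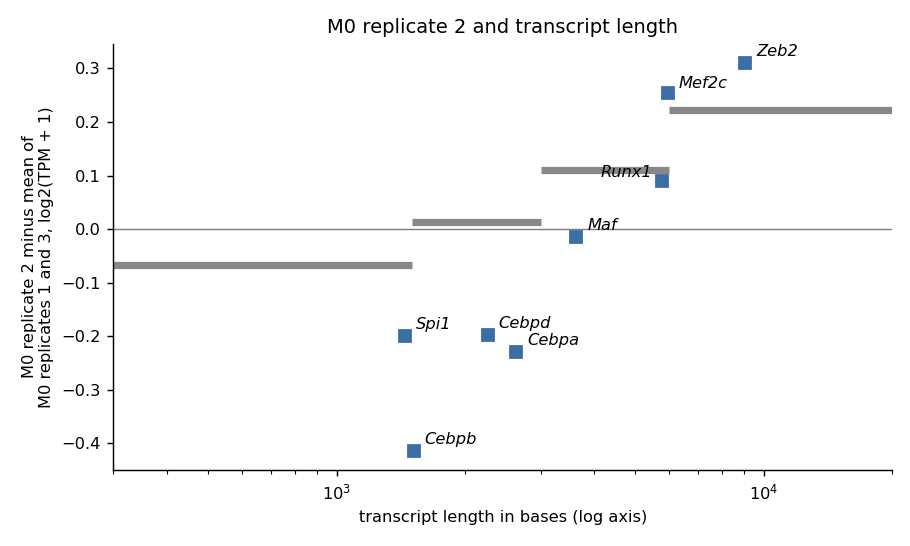
Deviation of M0 replicate 2 from the mean of M0 replicates 1 and 3 on the log2(TPM + 1) scale (vertical) against transcript length in bases (log axis), for the 8 factors (squares) and for the median gene of each length class (grey bars). The median deviation was −0.07 under 1500 bases, 0.01 from 1500, 0.11 from 3000 and 0.22 from 6000 bases. Cebpb lay lowest at −0.41 and Zeb2 highest at 0.31. Cebpb (1515 bases), Cebpa (−0.23) and Cebpd (−0.20) lay below their class of 1500 to 3000 bases. Spi1 (−0.20) lay below the class under 1500 bases. In the class of 3000 to 6000 bases Maf (−0.02) and Runx1 (0.09) lay below the median and Mef2c (0.25) above it.

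Markers were read to check the label of the cells. All 8 macrophage markers were tested, and their summed level was 15189 to 15567 TPM in M2 libraries and 16395 to 17546 TPM in M0 libraries. On TPM, 3 of these markers rose (Csf1r, Cd68 and Mertk), 4 fell (Lyz2, Itgam, Fcgr1 and Cd14) and 1 did not pass (Adgre1). After median scaling 4 rose, 2 fell and 2 did not pass, with Adgre1 rising and Lyz2 and Itgam not passing. Over all tested genes 17.7% rose and 45.3% fell on TPM, and 28.8% rose and 28.2% fell after scaling. Fcgr1 had 20.6 TPM in M2 cells and 128 TPM in M0 cells, and Cd14 had 65.4 TPM in M2 cells and 158 TPM in M0 cells. The lysozyme gene Lyz2 made up most of the sum, at 11889 to 12248 TPM in M2 libraries and 13350 to 14318 TPM in M0 libraries. The other 7 together were higher in M2 libraries, at 3300.3 to 3318 TPM, against 3045 to 3228 TPM in M0 libraries. The largest of these 7 were Cd68 (1495 TPM in M2 cells, 1366 TPM in M0 cells) and Csf1r (912 TPM in M2 cells, 674 TPM in M0 cells). Of 10 neutrophil markers 5 reached the filter, and the list summed to 35.4 to 43.7 TPM in M2 libraries and 37.5 to 44.7 TPM in M0 libraries. All 7 mast cell and basophil markers together gave 0.047 to 0.108 TPM in M2 libraries and 0 to 0.092 TPM in M0 libraries, with 3 of them at 0 throughout. The 8 T and NK cell markers summed to 0.177 to 0.351 TPM in M2 libraries and 0.187 to 0.586 TPM in M0 libraries. Of 8 dendritic cell markers only Batf3, a partner of AP-1 and IRF proteins, reached the filter, at 49.6 TPM in M2 cells and 2.12 TPM in M0 cells, and the list summed to 50.3 to 52.1 TPM in M2 libraries and 2.48 to 2.81 TPM in M0 libraries. The 5 B cell markers found, of 6, summed to 1.10 to 1.58 TPM in M2 libraries and 1.85 to 1.98 TPM in M0 libraries, and the 7 fibroblast markers to 7.34 to 7.92 TPM in M2 libraries and 9.44 to 10.1 TPM in M0 libraries. Megakaryocyte and erythroid markers were carried by Pf4, a chemokine that macrophages also express, at 414 TPM in M2 cells and 782 TPM in M0 cells, with sums of 408 to 426 TPM in M2 libraries and 703 to 859.8 TPM in M0 libraries and 3 of the 7 at 0 throughout. Their part in the changes of the 8 factors was not tested.

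The promoters of Cebpa and Cebpb are shown because these paralogs are alike in the DNA they bind and differed in how they moved. RefSeq promoter entries (GRCm38.p6, the build also called mm10) were matched for 5 of the 8 factors, Cebpa, Cebpb, Mef2c, Runx1 and Zeb2, and not for Spi1, Cebpd and Maf. Each sequence is the 250 bases before the start site on the coding strand, 5′ to 3′, chr7:35119043-35119292 on the plus strand for Cebpa and chr2:167688665-167688914 on the plus strand for Cebpb. Capitals mark TATAAA in Cebpa and TGACG, the core of a cAMP response element, on either strand (CGTCA on the other) in Cebpb.
Cebpa: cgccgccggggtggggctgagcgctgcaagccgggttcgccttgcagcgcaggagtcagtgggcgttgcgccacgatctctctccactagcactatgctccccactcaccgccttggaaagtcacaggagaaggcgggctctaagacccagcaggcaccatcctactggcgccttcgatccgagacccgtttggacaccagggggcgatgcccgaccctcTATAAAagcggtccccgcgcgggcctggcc
Cebpb: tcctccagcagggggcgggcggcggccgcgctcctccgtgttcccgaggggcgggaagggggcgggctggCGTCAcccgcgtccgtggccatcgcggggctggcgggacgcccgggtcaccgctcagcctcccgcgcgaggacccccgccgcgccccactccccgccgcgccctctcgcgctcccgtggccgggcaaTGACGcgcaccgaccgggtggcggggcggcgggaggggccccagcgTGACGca
Cebpa held TATAAA 30 bases before its start site, a motif found on either strand in 12.4% of 32851 promoters of the same length. Cebpb held TGACG at 180, 53 and 7 bases before its start site, and 17.8% of promoters held it at least once. Neither held TTCNNNNGAA, the spacing that STAT6 prefers and that 5.85% of promoters held, nor the C/EBP motif TTGCNNAA (9.56%) or the PU.1 core GAGGAA (23.3%), all searched on both strands. The GC content was 66.4% for Cebpa and 81.6% for Cebpb, against a median of 52.4% over all promoters. A match is a run of letters and not a measured site, and no match applies to these windows alone.

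Spi1 (RefSeq NM_011355; mm10 chr2:91096678-91115759, plus strand, 5 exons) encodes PU.1 and was the most abundant of the 8 factors in both groups. It had 395, 388 and 391 TPM in M2 libraries, against 437, 371 and 417 TPM in M0 libraries. The M2 libraries lay close together inside the M0 range, so the groups overlapped. The means were 391 ± 3.57 TPM in M2 cells and 408 ± 33.6 TPM in M0 cells (SD, n = 3 each). The log2 fold change was −0.06 (95% interval −0.18 to 0.06, limma adjusted p = 0.367), and on median-scaled TPM it was 0.11 (−0.04 to 0.27, limma adjusted p = 0.186). Without M0 replicate 2 it was −0.13 (limma adjusted p = 0.00359), close to the median of −0.14 over all genes in that fit. The 26059 reads in M2 libraries and 26449 in M0 libraries make counting error small, with an expected coefficient of variation of 1.07% in either group, against an observed 0.914% in M2 and 8.23% in M0.

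Of the 2 related PU.1-type ETS factors, Spib stayed under the filter and Spic, which is expressed in red pulp macrophages, did not pass. Of 15 other ETS factors 14 were tested, and 3 rose, 6 fell and 5 did not pass. After median scaling 4 rose, 5 fell and 5 did not pass. Over all tested genes 17.7% rose and 45.3% fell on TPM, and 28.8% rose and 28.2% fell after scaling. On TPM the ETS counts lay near these shares. So did those of all related factors on TPM, where 7 rose and 16 fell of 35 tested. After scaling 12 of these 35 rose and 15 fell, both larger shares than over all tested genes. Etv3, a repressor linked to cell cycle arrest of differentiating macrophages, had 74.2 ± 1.16 TPM in M2 cells and 29.2 ± 2.05 TPM in M0 cells (SD, n = 3 each; log2 fold change 1.32, limma adjusted p = 1.81e-08). The lowest fold change of the ETS list belonged to Elk3, a repressor of serum response genes, at 9.65 ± 0.472 TPM in M2 cells and 37.3 ± 1.48 TPM in M0 cells (log2 fold change −1.85). Fli1, an ETS factor of blood progenitors and megakaryocytes, fell to 19.5 TPM in M2 cells, against 46.3 TPM in M0 cells. Irf4 and Irf8, partners of PU.1 at composite sites, were both higher in M2 cells. Irf4 had 9.98, 9.45 and 9.62 TPM in M2 libraries, against 0.303, 0.376 and 0.265 TPM in M0 libraries (log2 fold change 3.02), and it reached the filter through the M2 libraries alone. Irf8, at 82.2 ± 2.36 TPM in M2 cells and 75.8 ± 0.733 TPM in M0 cells, had a log2 fold change of 0.11 (limma adjusted p = 0.0375). That call on TPM was lost when any library other than M0 replicate 2 was left out (limma adjusted p = 0.0533 to 0.165). On median-scaled TPM the log2 fold change of Irf8 was 0.28 (limma adjusted p = 0.000492), and the authors' deposited table gives 0.28.

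The C/EBP factors split. Cebpa (NM_001287523; chr7:35119293-35121928, plus strand, a single exon) had 282, 295 and 279 TPM in M2 libraries, against 158, 134 and 157 TPM in M0 libraries. Every M2 library stood well above every M0 library. The means were 285 ± 8.54 TPM in M2 cells and 149.6 ± 13.5 TPM in M0 cells (SD, n = 3 each), with a log2 fold change of 0.93 (95% interval 0.79 to 1.07, limma adjusted p = 5.10e-07). On median-scaled TPM the log2 fold change was 1.10, and the authors' deposited table gives 1.09 with an adjusted p of 1.28e-54. Among all tested genes 9.43% had a larger absolute log2 fold change.

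Cebpd (NM_007679; chr16:15887286-15889545, plus strand, a single exon) was expressed at a lower level and moved by the same factor. It had 32.3, 34.1 and 31.9 TPM in M2 libraries, against 17.7, 15.5 and 18.2 TPM in M0 libraries. The groups were well separated, at 32.8 ± 1.18 TPM in M2 cells and 17.1 ± 1.42 TPM in M0 cells (SD, n = 3 each). The log2 fold change was 0.90 (95% interval 0.75 to 1.05, limma adjusted p = 1.19e-06), and 1.06 on median-scaled TPM. Cebpd overlaps Spidr, a gene on the opposite strand that acts in DNA repair, and whether reads were counted by strand is not given in the sources used here. Spidr had 5.17 ± 0.303 TPM in M2 cells and 6.99 ± 0.72 TPM in M0 cells (log2 fold change −0.37, limma adjusted p = 0.0034), the opposite direction to Cebpd. The same limit holds for other members whose exons overlap opposite-strand exons in GENCODE: Cebpa (Gm45091), Cebpb (Tmem189), Maf (Gm15655) and Runx1 (Gm26626).

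Cebpb (NM_001287739; chr2:167688915-167690432, plus strand, a single exon) had 138, 141 and 132 TPM in M2 libraries, against 159, 114 and 146 TPM in M0 libraries. The M2 values fell within the M0 range, and M0 replicate 2 was the lowest of all 6. The means were 137 ± 4.93 TPM in M2 cells and 139.8 ± 23.2 TPM in M0 cells (SD, n = 3 each). The log2 fold change was −0.01 (95% interval −0.29 to 0.27, limma adjusted p = 0.926), an interval that leaves room for a change of up to that size in either direction. The coefficient of variation among M0 libraries was 16.6%, where counting error alone gives 1.80%. Without M0 replicate 2 the log2 fold change was −0.15 (limma adjusted p = 0.0178), near the median of all genes in that fit, and with median scaling it was 0.16 (limma adjusted p = 0.349).

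The balance among the 3 C/EBP factors differed between the groups, whatever the scaling of the libraries, since ratios within a library do not depend on it. Cebpa over Cebpb was 2.04, 2.09 and 2.12 in M2 libraries, against 0.991, 1.17 and 1.08 in M0 libraries. Cebpa over Cebpd was 8.71 ± 0.0522 in M2 cells and 8.73 ± 0.169 in M0 cells (SD, n = 3 each), with overlapping libraries. Cebpa made up 62.7% of the summed TPM of the 3 factors in M2 cells and 49.0% in M0 cells, Cebpb 30.1% in M2 cells and 45.4% in M0 cells, and Cebpd 7.20% in M2 cells and 5.61% in M0 cells. The sum of the 3 was 455 ± 14.2 TPM in M2 cells and 306 ± 37.7 TPM in M0 cells. Spi1 over Cebpa was 1.37 ± 0.0495 in M2 cells and 2.73 ± 0.0652 in M0 cells. No test was run on these ratios. The other C/EBP paralogs Cebpe, Cebpg and Ddit3 did not pass on TPM, while Cebpg and Ddit3 rose on median-scaled TPM. Cebpg, which heterodimerises with the others, had 18.8 ± 0.265 TPM in M2 cells and 17.9 ± 1.33 TPM in M0 cells (log2 fold change 0.07, and 0.23 after scaling). Ddit3, the stress-induced partner CHOP, had 88.3 ± 2.65 TPM in M2 cells and 84.0 ± 6.87 TPM in M0 cells (log2 fold change 0.07, and 0.24 after scaling).

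**Figure D3:**
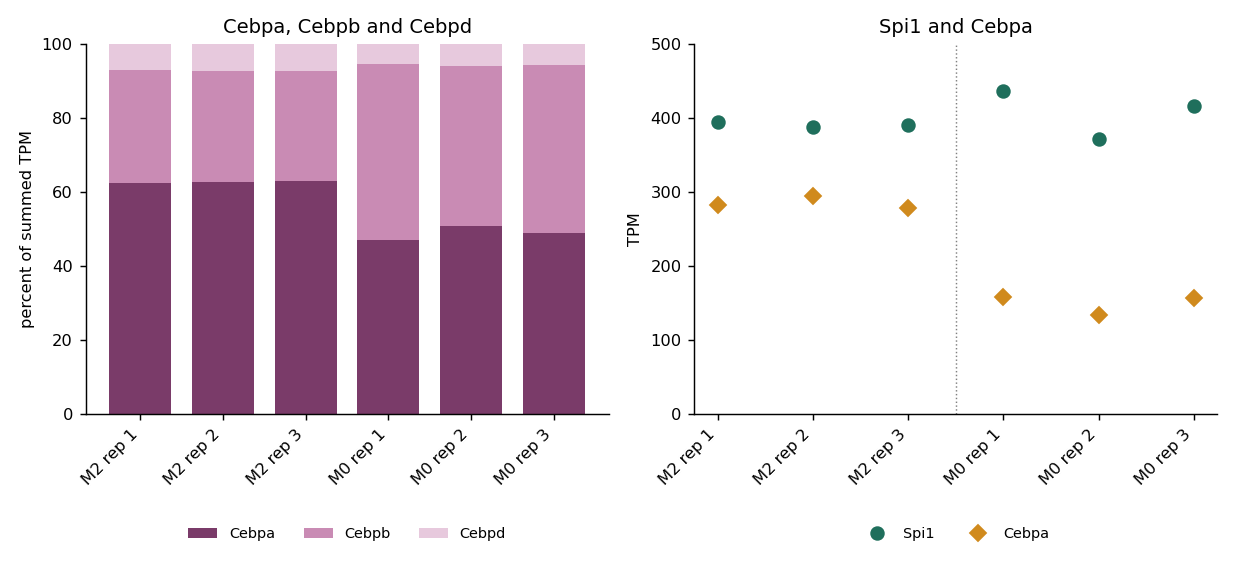
Left, the percent of the summed TPM of Cebpa, Cebpb and Cebpd taken by each, one stacked bar per library; right, TPM of Spi1 (circles) and Cebpa (diamonds) in each library. Cebpa took 62.7% on average in M2 libraries and 49.0% in M0 libraries, and Spi1 over Cebpa averaged 1.37 in M2 libraries and 2.73 in M0 libraries.

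Maf (NM_001025577; chr8:115703253-115706894, minus strand, a single exon) encodes c-MAF and changed more than any other of the 8 factors. It had 86.0, 93.2 and 87.7 TPM in M2 libraries, against 266, 257 and 254 TPM in M0 libraries. The groups lay far apart and each was tight, at 89.0 ± 3.79 TPM in M2 cells and 259 ± 6.26 TPM in M0 cells (SD, n = 3 each). The log2 fold change was −1.53 (95% interval −1.63 to −1.43, limma adjusted p = 1.11e-09), and −1.36 on median-scaled TPM. The authors' deposited table gives −1.37 for Maf. Only 2.86% of tested genes had a larger absolute log2 fold change. Maf was the second most abundant of the 8 in M0 cells and the fourth in M2 cells.

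Mafa, a related large MAF factor best known from pancreatic islets, reached the filter through the M2 libraries alone, at 1.24 ± 0.166 TPM in M2 cells, against 0.165 ± 0.0665 TPM in M0 cells (SD, n = 3 each), a low level in either group. Of the 3 small MAF proteins, which lack a transactivation domain and pair with other leucine zipper factors, 2 fell and 1 did not pass. Mafg had 32.2 ± 1.37 TPM in M2 cells and 60.5 ± 1.29 TPM in M0 cells (log2 fold change −0.89), and Mafk had 15.2 ± 1.82 TPM in M2 cells and 21.4 ± 0.436 TPM in M0 cells (log2 fold change −0.47).

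Mef2c (NM_001347573; chr13:83523656-83667079, plus strand) encodes a MADS-box factor that favours monocytic over granulocytic fate in mouse progenitors. It had 13.8, 13.2 and 12.7 TPM in M2 libraries, against 15.7, 18.8 and 15.5 TPM in M0 libraries. The groups did not overlap, and M0 replicate 2 was the highest library. The means were 13.2 ± 0.538 TPM in M2 cells and 16.7 ± 1.85 TPM in M0 cells (SD, n = 3 each), with a log2 fold change of −0.31 (limma adjusted p = 0.00594). On median-scaled TPM it was −0.15 (limma adjusted p = 0.0934), and the authors' deposited table gives −0.17 with an adjusted p of 0.0589. Its paralog Mef2a fell by far more, to 30.9 ± 0.642 TPM in M2 cells, against 105 ± 13.7 TPM in M0 cells (log2 fold change −1.73, limma adjusted p = 3.57e-08). Mef2c over Mef2a was 0.427 ± 0.0228 in M2 cells and 0.159 ± 0.00346 in M0 cells.

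Runx1 (NM_001111021; chr16:92601466-92826074, minus strand, 8 exons) encodes the RUNT factor needed for definitive haematopoiesis, which binds DNA with the help of CBFβ. It had 13.9, 13.98 and 13.5 TPM in M2 libraries, against 12.3, 12.6 and 11.3 TPM in M0 libraries. The M2 libraries all lay above the M0 libraries, by a small margin. The means were 13.8 ± 0.229 TPM in M2 cells and 12.0 ± 0.693 TPM in M0 cells (SD, n = 3 each), with a log2 fold change of 0.18 (limma adjusted p = 0.0274) and 0.34 on median-scaled TPM (limma adjusted p = 0.000594). The call on TPM was lost without M2 replicate 1, 2 or 3 or without M0 replicate 3 (limma adjusted p = 0.0616 to 0.0942). Cbfb, the non-DNA-binding partner, moved in the opposite direction, with 42.9 ± 0.809 TPM in M2 cells and 72.8 ± 3.49 TPM in M0 cells (log2 fold change −0.75, limma adjusted p = 4.32e-07). Runx1 over Cbfb was 0.322 ± 0.0113 in M2 cells and 0.165 ± 0.00613 in M0 cells. Runx2, best known from bone, rose to 3.10 ± 0.164 TPM in M2 cells, against 1.63 ± 0.0310 TPM in M0 cells, and Runx3 stayed under the filter.

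Zeb2 (NM_001355289; chr2:44983512-45113253, minus strand) encodes a zinc finger repressor that represses the E-cadherin gene. It had 71.3, 71.5 and 72.7 TPM in M2 libraries, against 68.5, 85.0 and 68.4 TPM in M0 libraries. The M2 libraries lay above M0 replicates 1 and 3 and below M0 replicate 2, which carried most of the spread. The means were 71.8 ± 0.750 TPM in M2 cells and 73.9 ± 9.59 TPM in M0 cells (SD, n = 3 each), with a log2 fold change of −0.03 (limma adjusted p = 0.721). Its sign was positive without M0 replicate 2 (0.07, limma adjusted p = 0.0657) and on median-scaled TPM (0.14, limma adjusted p = 0.115). With the trend of each library against transcript length removed, an alternative chosen after seeing the data, it was 0.18 and passed (limma adjusted p = 0.00401). Zeb2os, annotated on the other strand and overlapping Zeb2, had 38.0 ± 1.81 TPM in M2 cells and 34.1 ± 0.382 TPM in M0 cells (log2 fold change 0.15, limma adjusted p = 0.0231), a call that was lost without M2 replicate 1 or 2 or M0 replicate 1 (limma adjusted p = 0.0608 to 0.112), and reads of the pair cannot be told apart without strand. Zeb1, the paralog, stayed under the filter, at 0.255 to 0.34 TPM in M2 libraries and 0.28 to 0.552 TPM in M0 libraries.

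**Figure D4:**
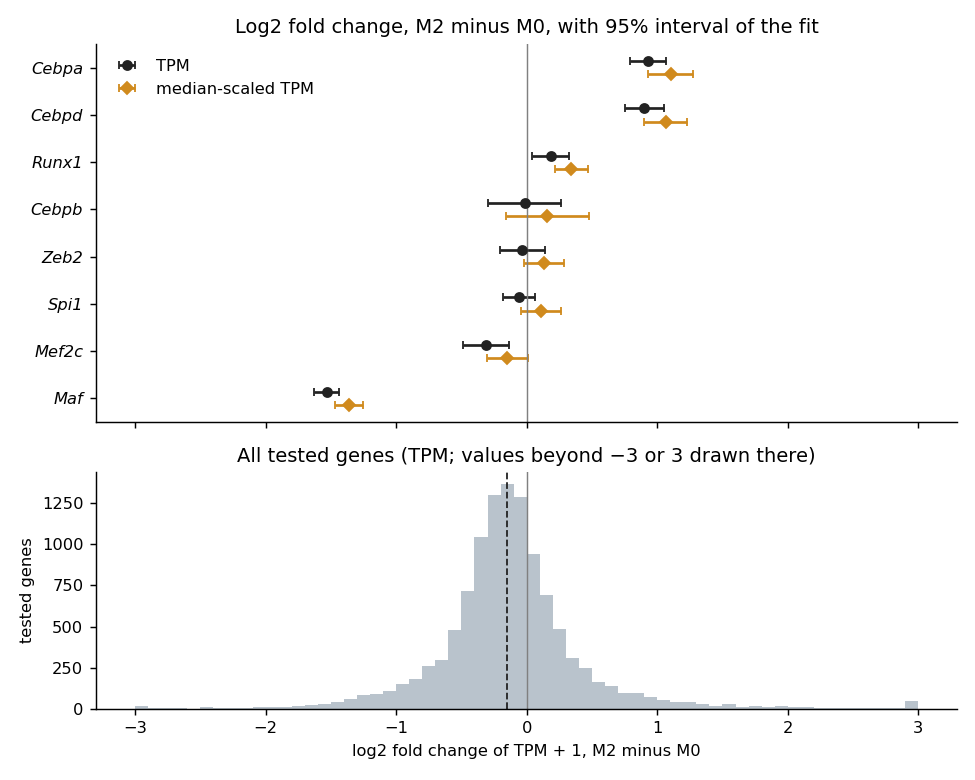
Top, log2 fold change (M2 minus M0) of each factor with its 95% interval, on TPM (circles) and median-scaled TPM (diamonds); bottom, the number of tested genes by log2 fold change, with the median of −0.15 as a dashed line. Scaling moved every factor upward by a similar amount, and Cebpa, Cebpd and Maf lay far from 0 on either scale.

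Ordered by TPM, the 8 factors in M2 cells ran Spi1, Cebpa, Cebpb, Maf, Zeb2, Cebpd, Runx1 and Mef2c, and the libraries of neighbours overlapped only for Runx1 and Mef2c. In M0 cells the order was Spi1, Maf, Cebpa, Cebpb, Zeb2, Cebpd, Mef2c and Runx1, with overlap between Cebpa and Cebpb and between Cebpd and Mef2c. Spi1 lay at the 98.4th percentile of tested genes in M2 cells and the 98.5th in M0 cells. Runx1 lay at the 52.7th percentile in M2 cells and the 45.4th in M0 cells. The spread among M2 libraries was 0.914% to 4.26% of the mean over the 8 factors, and that among M0 libraries 2.42% to 16.6%.

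The tested genes with the most similar profile over the 6 libraries, by Euclidean distance on mean-centred log2(TPM + 1), were looked up for each factor that passed. Cebpa and Cebpd were each other's nearest gene of 11235, at a distance of 0.0577. The next for Cebpa were Fcgrt, the neonatal Fc receptor (0.0723), and Rnf166 (0.0878). Next for Cebpd were 6530402F18Rik (0.0638) and Ctsz, a lysosomal cathepsin at 1713 TPM in M2 cells and 939 TPM in M0 cells (0.106). The nearest to Maf were Plk1, a mitotic kinase (0.102), Cd276 (0.112) and the stress kinase Map3k5 (0.113). For Mef2c they were Rnf20 (0.0249), Utp6 (0.0471) and Serac1 (0.0513), and for Runx1 they were Tmem260 (0.0391), Tmem94 (0.0591) and Galns (0.0601). With 3 libraries a group these distances are descriptions of these libraries.

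Genes known to depend on these factors were read from lists, of which 33 of 35 genes were tested: 11 rose, 19 fell and 3 did not pass, and 13 rose, 15 fell and 5 did not pass after median scaling. The shares over all tested genes were 17.7% rising and 45.3% falling on TPM, and 28.8% rising and 28.2% falling after scaling. A gene that reaches the filter only through the group where it is high had to differ, which holds for 2 of the linked genes, Il10 and Cdh1, and for 2 of the related factors, Irf4 and Mafa. Among 16 myeloid genes linked to PU.1, C/EBP and RUNX1, 7 rose, 7 fell and 2 did not pass on TPM, and 8, 5 and 3 on median-scaled TPM. The colony-stimulating factor receptors rose together. Csf1r, the M-CSF receptor, had 912 ± 1.97 TPM in M2 cells and 674 ± 11.8 TPM in M0 cells (log2 fold change 0.44, limma adjusted p = 1.10e-06). Csf2rb, the shared beta chain of the GM-CSF receptor, whose values are uncertain because its near-identical copy Csf2rb2 can share reads with it, had 369 ± 6.20 TPM in M2 cells and 110.5 ± 6.90 TPM in M0 cells (log2 fold change 1.73). Csf2ra, its alpha chain, had 295 TPM in M2 cells and 174 TPM in M0 cells, and Csf3r, the G-CSF receptor and a C/EBPα target, had 25.6 TPM in M2 cells and 6.35 TPM in M0 cells. Other genes of the same list fell, among them Fcgr1, the high-affinity IgG receptor, at 20.6 ± 1.05 TPM in M2 cells and 128 ± 7.55 TPM in M0 cells (log2 fold change −2.58). Cd14, the lipopolysaccharide co-receptor, fell to 65.4 TPM in M2 cells, against 158 TPM in M0 cells. Fcgr3, a low-affinity IgG receptor, rose to 786 TPM in M2 cells, against 417 TPM in M0 cells. The lysozyme gene Lyz2 fell on TPM (log2 fold change −0.19) and did not pass on median-scaled TPM (−0.02).

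Of 4 genes reported to need C/EBPβ in alternative activation, Arg1 rose and 3 fell, on TPM and after median scaling. The shares over all tested genes were 17.7% rising and 45.3% falling on TPM, and 28.8% rising and 28.2% falling after scaling. Arg1, which encodes arginase, had 1016, 1007 and 1002 TPM in M2 libraries, against 1.87, 1.22 and 1.57 TPM in M0 libraries (log2 fold change 8.63, limma adjusted p = 4.90e-13). Msr1, a scavenger receptor, fell to 99.2 ± 0.547 TPM in M2 cells, against 225 ± 19.7 TPM in M0 cells (log2 fold change −1.17). Il10, which is also a MAF target, had 0.263, 0.667 and 0.329 TPM in M2 libraries, against 2.31, 1.68 and 2.48 TPM in M0 libraries (log2 fold change −1.15), and it reached the filter through the M0 libraries alone. Il13ra1 fell to 1.02 ± 0.213 TPM in M2 cells, against 3.34 ± 0.456 TPM in M0 cells.

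Of 10 macrophage genes linked to MAF, 9 were tested, 8 fell and 1 rose, where 45.3% of all tested genes fell and 17.7% rose, the list's summed level being 3279 to 3330 TPM in M2 libraries and 3785 to 4320 TPM in M0 libraries. After median scaling 6 fell, 1 rose and 2 did not pass, against 28.2% falling and 28.8% rising over all tested genes. Il10 is among the falling genes. The 3 genes of the complement component C1q were in this list. C1qa fell to 286 ± 3.64 TPM in M2 cells, against 472 ± 49.5 TPM in M0 cells (log2 fold change −0.72), while C1qb (−0.25) and C1qc (−0.27) did not pass on median-scaled TPM. Folr2, a folate receptor of resident macrophages, had 124 ± 3.78 TPM in M2 cells and 189.8 ± 3.79 TPM in M0 cells, and the haemoglobin scavenger receptor Cd163 had 1.83 ± 0.163 TPM in M2 cells and 3.98 ± 0.351 TPM in M0 cells. Mertk, a receptor for dying cells, rose to 42.2 ± 1.00 TPM in M2 cells, against 35.6 ± 2.52 TPM in M0 cells. Of the 3 self-renewal genes that MAF helps to hold down in mouse macrophages, Klf4 rose, Myc fell and Klf2 did not pass. Klf4 had 18.2 ± 0.168 TPM in M2 cells and 5.75 ± 0.184 TPM in M0 cells (log2 fold change 1.51), and Myc had 12.97 ± 0.831 TPM in M2 cells and 28.4 ± 1.27 TPM in M0 cells (log2 fold change −1.07). Klf2 had 14.1 ± 0.786 TPM in M2 cells and 13.2 ± 1.53 TPM in M0 cells (log2 fold change 0.09, and 0.25 with a limma adjusted p of 0.0214 on median-scaled TPM).

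Of 4 genes linked to ZEB2, 3 were tested, 1 rose and 2 fell on either scale. Among all tested genes 17.7% rose and 45.3% fell on TPM, and 28.8% rose and 28.2% fell after median scaling. Cdh1, the E-cadherin gene, had 2.37, 2.19 and 2.23 TPM in M2 libraries, against 0.163, 0.135 and 0.111 TPM in M0 libraries (log2 fold change 1.52), and it reached the filter through the M2 libraries alone. Nr1h3, which encodes the nuclear receptor LXRα and depends on ZEB2 in mouse Kupffer cells, had 13.1 ± 0.629 TPM in M2 cells and 31.8 ± 1.86 TPM in M0 cells (log2 fold change −1.22). Id2, an inhibitor of basic helix-loop-helix factors that ZEB2 represses in mouse dendritic cells, had 123 ± 2.08 TPM in M2 cells and 179.99 ± 12.4 TPM in M0 cells (log2 fold change −0.54). The other ID genes fell with it. Id1 had 9.27 ± 0.940 TPM in M2 cells and 75.7 ± 6.83 TPM in M0 cells (log2 fold change −2.90), and Id3 had 66.8 ± 2.29 TPM in M2 cells and 121 ± 10.5 TPM in M0 cells (log2 fold change −0.85).

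**Figure D5:**
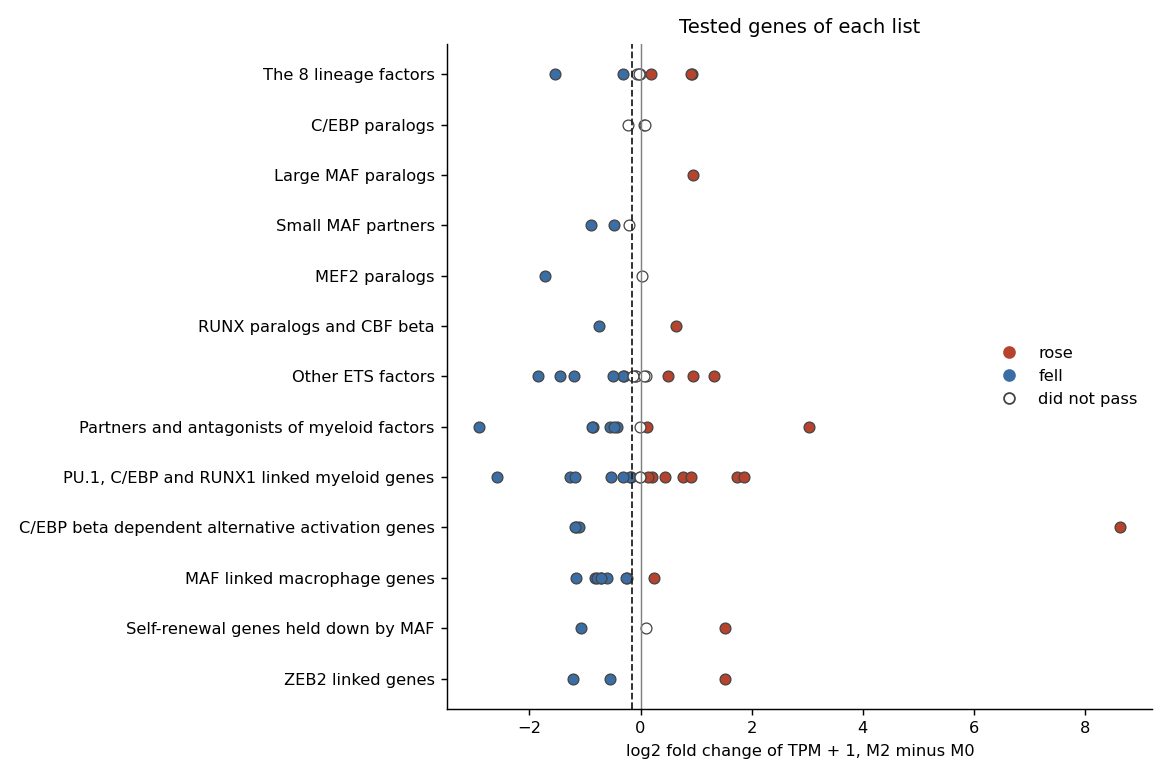
Log2 fold change of TPM + 1 (M2 minus M0, horizontal) of tested genes in the 8 factors and in lists of relatives and linked genes, one row per list. Spic, the only tested gene of the PU.1-type ETS list, is not drawn. Red rose, blue fell and open circles did not pass, and the dashed line is the median of all tested genes, −0.15. The MAF-linked row lay mostly left of the dashed line, the row of PU.1-, C/EBP- and RUNX1-linked genes spread to both sides, and the point at 8.63 is Arg1.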

How the data were processed

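Sample titles gave the group and the replicate number of each library. The submitters' processing notes name the mm10 build and the tools STAR, bcl2fastq, DESeq2 and HOMER 4.11.1. The authors deposited TPM per library, made by HOMER from exon reads of 1 transcript per gene, per the file headers. A second deposited table, on the comparison, gives the authors' log2 values per library, by a transformation that is not named, and their log2 fold change. It also gives the authors' p-value, raw and adjusted, for each gene. Set against the library means, its fold change runs as M2 minus M0. For Mef2c, Runx1 and Zeb2, among 4515 genes, that table rests on another transcript than the TPM table. Whole reads were recovered from TPM times transcript length (99.8% to 99.9% of values whole within 0.1 read), which gave 16913185 to 19019896 reads per library. The expected counting spread covers counting error only, and the 95% intervals of fold changes come from limma and cover the spread between libraries.

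Since the unit is TPM, a two-sided limma-trend test with robust moderation (R 4.3.3, limma 3.58.1) was run on log2(TPM + 1), after a filter of at least 1 TPM in at least 3 libraries. The model held group alone. Benjamini-Hochberg adjustment ran over all genes tested, with a threshold of 0.05. Fold changes on this scale understate the change of low genes. Promoters came from RefSeq (GRCm38.p6), and exon numbers from GENCODE transcripts matched by RefSeq identifier. Figures and tables were made with Python 3.11.15.

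The members, and the lists of relatives, linked genes and markers, were chosen with earlier results of these data known. Genes named were the 8 members, genes of those lists, genes overlapping a member, and for each member that passed the 3 tested genes with the nearest profile. Alternatives covered pseudocount, filter, scaling, moderation, replicate block, recovered reads with limma-voom, the authors' log2 values and each library left out; removal of the length trend was added after seeing the data. 1 related gene is not reported here.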

Additional observations from a re-analysis of the deposited data

How the results depend on the processing

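Each of the 8 members was refitted under 16 alternatives. Cebpa (log2 fold change 0.85 to 1.10), Cebpd (0.77 to 1.06) and Maf (−1.57 to −1.32) kept their direction and their call in all of them. With median scaling, 3234 genes rose and 3163 fell, against 3318 and 3323 on the authors' log2-scale values and 3389 and 3253 with the length trend removed, which was chosen after seeing the data; limma-trend on TPM gave 1983 and 5088. Related factors that rose numbered 7 on TPM, 12 under each of these 3 settings, and 4 with a filter at 5 TPM, which tests fewer genes. Members that fell numbered 1 with median scaling and 1 with the length trend removed, and between 2 and 4 when single libraries were left out. Spi1 turned to 0.11 with median scaling, 0.11 on the authors' values and 0.062 without the length trend. Cebpb turned to 0.16, 0.15 and 0.11 under the same 3 settings, and to 0.037 with limma-voom on recovered reads. Zeb2 turned to 0.14, 0.13 and 0.18, and to 0.016 with limma-voom; of these, the value without the length trend passed. Mef2c was −0.15 with median scaling and −0.11 without the length trend, and passed in neither. Leaving out single libraries gave −0.13 to −0.0090 for Spi1, −0.15 to 0.086 for Cebpb, 0.14 to 0.21 for Runx1 and −0.086 to 0.069 for Zeb2. Apart from what median scaling and length correction do by construction to the level of a library, the cause of these shifts was not tested. Refits were also counted for other named genes, though not for all of them. In that set 852 of the refits kept direction and call, 42 lost the call and 10 gained it, and none changed direction. Itgam and Adgre1 were outside the set and changed sign with median scaling. Itgam went from −0.16 to 0.0076 and Adgre1 from −0.0018 to 0.17.

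Samples of the same replicate number did not deviate together: over 11235 genes the correlations were 0.0050, −0.0049 and −0.043, and not every sample correlated best with its own number. With the replicate number as a block, 1953 genes rose and 4963 fell, and the members kept their calls, 3 rising and 2 falling, while Irf8, Tmem260 and Tmem94 lost theirs. Depth limited none of the members strongly, the fewest reads being those of Cebpd, 1728 over the M0 libraries; 3 libraries a group and the spread among M0 libraries limited the precision for Spi1, Cebpb and Zeb2.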
